A study of Homo sapiens with 6 samples.

Results

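The genes described here carry glucose into the cell, split it to pyruvate, turn pyruvate into lactate and carry lactate out. They include regulators that act at phosphofructokinase and at pyruvate dehydrogenase. They were taken from the table by gene symbol, from a list drawn up with earlier results of these data known, and comprise 32 of the 40111 genes of the deposited expression table. They are 3 glucose transporters, 18 enzymes from hexokinase to lactate dehydrogenase, 4 PFKFB enzymes, 4 pyruvate dehydrogenase kinases and 3 monocarboxylate transporters.

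The tested cells were BE(2)-M17 cells, a human neuroblastoma line, in which the long noncoding RNA gene LINC00894 had been knocked down with a CRISPR-Cas9 vector, and the controls were cells of the same line with the genotype label NC. Each group had 3 poly(A)-selected RNA-seq libraries, knockdown 1 to 3 and control 1 to 3. The labels give no guide sequence, culture time, cell passage or clone, nor whether each library is a culture of its own; p-values below therefore measure the spread between these libraries alone, which may be technical. The study asked what LINC00894 does in these cells. The number of reads assigned to genes was 22898079, 28339105 and 28782977 in the knockdown libraries and 29276653, 48089716 and 43219009 in the control libraries, so that 1 read in a 1-kb gene model was worth 0.0208 to 0.0437 FPKM (fragments per kilobase of gene model scaled to the assigned reads of the library, the unit of all levels below).

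LINC00894, the target, was lower in every knockdown library than in every control library. It stood at 1.10, 1.30 and 0.867 FPKM in the knockdown libraries, against 2.00, 2.24 and 2.21 FPKM in the control libraries, a log2 fold change of -0.93 (SE 0.17, limma adjusted p = 0.0406). Control 1 stood apart from the other 2 controls over the whole table: the median chi-square per gene between its reads and those of control 2 and control 3 was 8.11 and 9.12, against 3.76 to 4.49 between its reads and those of the knockdown libraries and 2.39 between controls 2 and 3. This chi-square grows with read depth for the same relative difference, and controls 2 and 3 were the deepest libraries. The cell line label was also set against neuroblast markers. Of 12 such genes 10 were analysed and 4 had enough reads to be tested, GATA3 at 4.12 to 5.58 FPKM, ISL1, HAND2 and CHGA. PHOX2A, DDC and STMN2 were near 0, with a highest value of 0.0815 FPKM for STMN2 in control 2. MYCN, for whose amplification the line is known, was at 0.16 to 0.27 FPKM over all libraries. Red cell markers also differed, with a summed level of 853, 374 and 439 FPKM in the knockdown libraries and 6.21, 3.61 and 66.0 FPKM in the control libraries, and 3 of 5 tested passed as higher. Myeloid markers summed to 51.4, 152 and 179 FPKM in the knockdown libraries and 2.27, 1.17 and 251 FPKM in the control libraries, and 0 of 5 tested passed the limma test while 3 had an unadjusted p under 0.05. The part of these differences in the results below was not tested.

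Glycolysis splits glucose to pyruvate in the cytosol and yields ATP and NADH without oxygen. Lactate dehydrogenase reduces pyruvate to lactate and so returns NAD+ to the pathway, and the proton-linked monocarboxylate transporters carry the lactate out. Many of these genes respond to the hypoxia-inducible factors, HIF, which bind a short core sequence in promoters, and to MYC, which binds E-boxes. Tumour cells commonly express HK2 and LDHA at high levels.

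A promoter window of each of the 4 genes that passed the test is shown because HIF and E-box sequences are the elements most often discussed for this pathway. Shown are the 250 bases before the start site of the first RefSeq window listed for each gene (GRCh38.p14). Capitals mark ACGTG or GCGTG, the HIF core, on either strand. SLC2A1 lies at chr1:42958869-42959118 on the minus strand, HK2 at chr2:74833877-74834126, PGAM1 at chr10:97427568-97427817 and LDHA at chr11:18394313-18394562, all 3 on the plus strand.
SLC2A1: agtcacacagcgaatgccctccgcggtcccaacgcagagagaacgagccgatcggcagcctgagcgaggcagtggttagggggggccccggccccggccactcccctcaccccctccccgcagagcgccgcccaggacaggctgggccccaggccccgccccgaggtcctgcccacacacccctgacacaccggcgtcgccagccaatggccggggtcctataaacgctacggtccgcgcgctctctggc
HK2: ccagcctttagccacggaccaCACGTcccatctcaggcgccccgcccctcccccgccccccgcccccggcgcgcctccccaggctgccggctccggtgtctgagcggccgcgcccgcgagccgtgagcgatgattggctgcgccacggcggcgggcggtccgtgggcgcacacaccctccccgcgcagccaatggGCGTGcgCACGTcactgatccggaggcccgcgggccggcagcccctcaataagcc
PGAM1: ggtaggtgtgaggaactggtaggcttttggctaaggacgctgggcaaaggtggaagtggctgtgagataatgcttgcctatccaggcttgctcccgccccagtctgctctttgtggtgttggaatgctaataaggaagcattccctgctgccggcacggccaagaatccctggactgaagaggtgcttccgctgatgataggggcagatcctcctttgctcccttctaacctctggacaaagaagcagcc
LDHA: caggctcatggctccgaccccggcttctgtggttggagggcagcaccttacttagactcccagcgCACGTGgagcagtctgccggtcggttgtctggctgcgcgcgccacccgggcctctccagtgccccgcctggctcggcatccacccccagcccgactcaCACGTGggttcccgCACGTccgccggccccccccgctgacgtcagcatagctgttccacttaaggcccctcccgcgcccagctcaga
HK2 and LDHA each held 3 separate stretches, and in LDHA 2 of them were CACGTG, the E-box, which reads ACGTG on both strands and so overlaps the HIF core. SLC2A1 and PGAM1 held none in these bases, and the whole 300-base window of SLC2A1 held 1. The 250 bases of both lie inside the annotated gene, which begins at 42959176 for SLC2A1 and at 97426160 for PGAM1. Those of HK2 and LDHA lie partly inside it, since these genes begin at 74833981 and 18394388. Any other start site of a gene was not examined. Of the 32 genes, 28 had a window. ACGTG or GCGTG occurred in 17 of these 28 windows of 300 bases (60.7%), against 48.4% of all 27305 windows. ACGTG alone occurred in 9 (32.1%, against 21.6%), and CACGTG in 3 (10.7%, against 7.44%). These are matches of letters and carry no measurement of binding.

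Single libraries ranged from 0.0478 FPKM for SLC16A7 to 454 FPKM for GAPDH. GAPDH, TPI1, ENO1 and LDHA were the most abundant and SLC16A7 and PFKFB1 the least. Summed over all 32, the level was 1384, 1594 and 1570 FPKM in the knockdown libraries and 1385, 1305 and 1241 FPKM in the control libraries, so that knockdown 1 and control 1 were nearly equal. Of the 30 genes that passed the filter (0.5 FPKM in at least 3 libraries), 4 rose in the knockdown, SLC2A1, HK2, PGAM1 and LDHA, by the limma test at an adjusted p under 0.05. Over all 18548 genes tested 4.14% rose by that rule, and 2.06% fell, against 0 of these 30. In the knockdown 12 of the 30 were higher and 1 lower at an unadjusted p under 0.05, against 21.0% and 11.6% of all genes tested. The log2 fold change was above 0 in 26 and below 0 in 4, with a median of 0.23 and a range of -0.60 to 0.85, against a median of 0.07 over all genes. With median-of-ratios size factors 6 of the 26 were below 0: GPI, PFKFB2, GAPDH, ENO2, PDK2 and PDK4. The knockdown libraries lay entirely above the control libraries in 10 genes (23.9% of all genes tested did so) and entirely below in 2 (14.3%). Bulk levels do not tell fewer cells of a type from less RNA per cell.

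**Figure D1:**
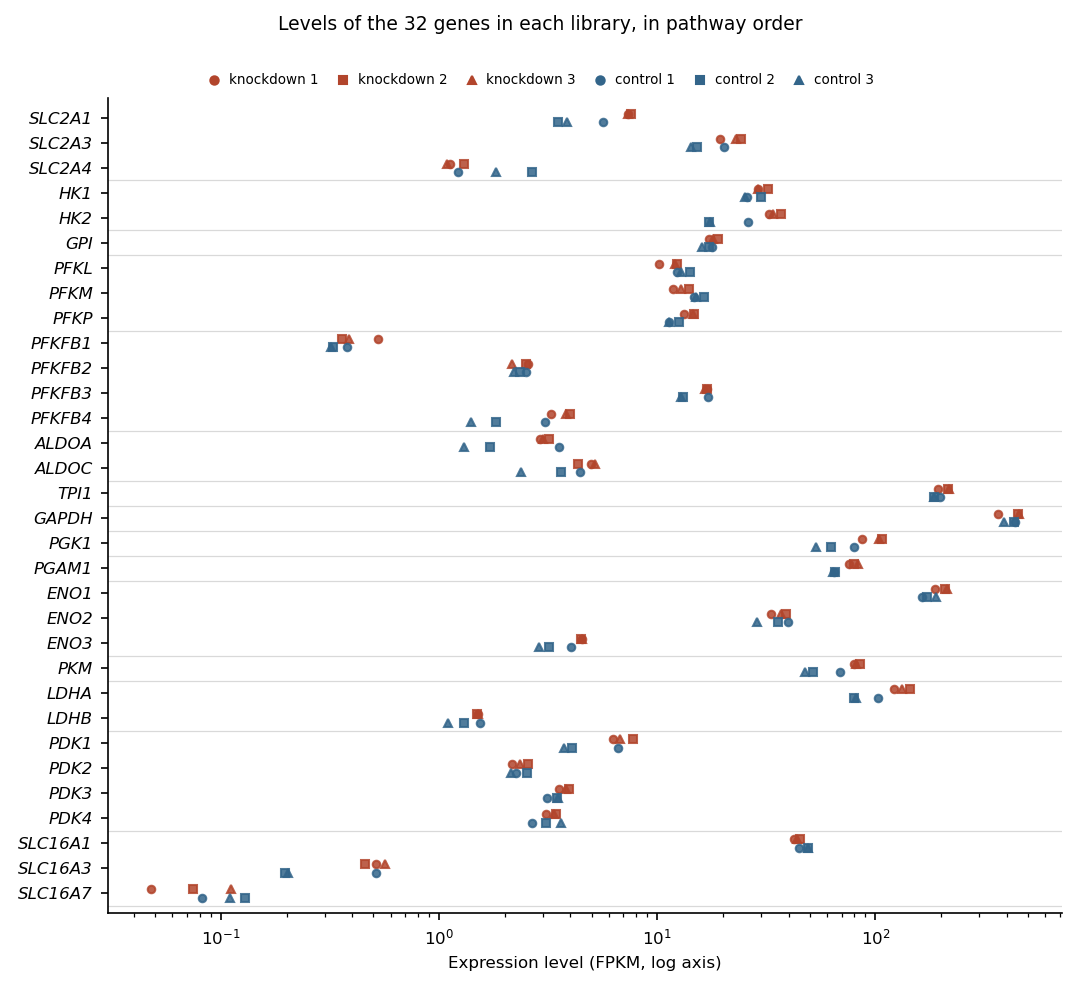
Level of each of the 32 genes in each library, in FPKM on a log axis, in pathway order from glucose uptake (top) to lactate transport; red marks are knockdown and blue marks control libraries, and the shape gives the library number. Knockdown marks lie right of all control marks for SLC2A1, HK2, PGAM1, LDHA, PFKP, PFKFB4, PGK1, ENO3, PKM and PDK3. They lie left of all control marks for PFKM and, barely, PFKL. Among the control marks, the blue circle of control 1 often lies nearest to the knockdown marks.

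Control 1 resembled the knockdown libraries in much of the pathway, as it did in most genes tested. It lay nearer the knockdown mean than the mean of controls 2 and 3 in 22 of the 30 genes (73.3%, against 60.8% of all genes tested). The median difference between control 1 and the other 2 controls was 0.22 on the log2 scale, against 0.08 over all genes, while that between the knockdown mean and control 1 was 0.10, against 0.02. All knockdown libraries lay above control 1 in 13 of the 30 genes (43.3%, against 39.4% of all genes tested) and below it in 6 (20%, against 32.2%). Without control 1, 15 of the 30 rose (28% of all genes tested did) and 3 fell, PFKM, SLC2A4 and SLC16A1 (15.7%). By limma-voom on the reads recovered from the FPKM values, 7 rose, the same 4 with PGK1, PKM and PFKFB4 (12.4% of all genes), and 0 fell (4.5%). In the authors' deposited table, 6 had an adjusted p under 0.05 and were higher, SLC2A1, HK2, PFKFB4, PGK1, PKM and LDHA (3.23% of the 40090 genes with a value), and 2 were lower, SLC2A4 and PFKM (4.22%). PGAM1 had an adjusted p of 0.437 in that table. The scaling also moved the count: with median-of-ratios size factors the median of all genes moved to -0.05, a shift of -0.12, and 0 of the 30 passed, while 10 (33.3%) had an unadjusted p under 0.05, against 32.8% of all genes tested (limma adjusted p = 0.0529 for SLC2A1, 0.0506 for HK2 and 0.0508 for LDHA). With that scaling the knockdown libraries lay entirely above the controls in 8 genes (16.9% of all genes) and below in 3 (21.2%). With FPKM as deposited, leaving out any 1 of the libraries other than control 1 also left 0 that passed, with limma adjusted p values of 0.112 to 0.182 over the 4 genes. In each of these fits 0 of all 18548 genes tested passed, higher or lower.

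Glucose enters through facilitative transporters. SLC2A1 (ENSG00000117394; chromosome 1, 42925375 to 42959176, minus strand, GRCh38) encodes GLUT1, the broadly expressed one. It stood at 7.38, 7.62 and 7.36 FPKM in the knockdown libraries, against 5.63, 3.50 and 3.85 FPKM in the control libraries. The groups did not overlap, and control 1 was the highest control. The log2 fold change was 0.80 (SE 0.18, limma adjusted p = 0.0499), or 1.74-fold. SLC2A3, the high-affinity neuronal transporter GLUT3, was the most abundant of the 3. It stood at 19.4, 24.2 and 23.1 FPKM in the knockdown libraries, against 20.3, 15.2 and 14.2 FPKM in the control libraries, with control 1 inside the knockdown range. Its log2 fold change of 0.43 (SE 0.15) did not pass (limma adjusted p = 0.111), and its near-copy SLC2A14, at 0.439 to 0.633 FPKM in the knockdown and 0.336 to 0.423 FPKM in control libraries, could share a small part of its reads. SLC2A4, the insulin-regulated transporter GLUT4, ran the other way. It stood at 1.13, 1.30 and 1.09 FPKM in the knockdown libraries, against 1.22, 2.68 and 1.82 FPKM in the control libraries, and control 1 lay between the knockdown values. Its log2 fold change was -0.60 (SE 0.28, limma adjusted p = 0.187), the lowest of the 30.

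Hexokinase phosphorylates glucose and keeps it in the cell. HK2 (ENSG00000159399; chromosome 2, 74833981 to 74893359, plus strand), the inducible form, stood at 32.7, 36.9 and 33.8 FPKM in the knockdown libraries, against 26.1, 17.2 and 17.4 FPKM in the control libraries. All knockdown libraries were above all controls, with control 1 in between. The log2 fold change was 0.79 (SE 0.17, limma adjusted p = 0.0478), or 1.73-fold. HK1, the constitutive form, stood at 28.97, 32.2 and 29.1 FPKM in the knockdown libraries, against 25.8, 29.9 and 25.2 FPKM in the control libraries, and the groups overlapped. Its log2 fold change was 0.16 (limma adjusted p = 0.254). HK2 made up 53.0%, 53.4% and 53.7% of the FPKM of the pair in the knockdown libraries, against 50.2%, 36.5% and 40.9% in the control libraries. GPI, which isomerises glucose 6-phosphate, averaged 18.1 ± 0.821 FPKM in knockdown and 17.1 ± 0.961 FPKM in control libraries (SD, n = 3 each).

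**Figure D2:**
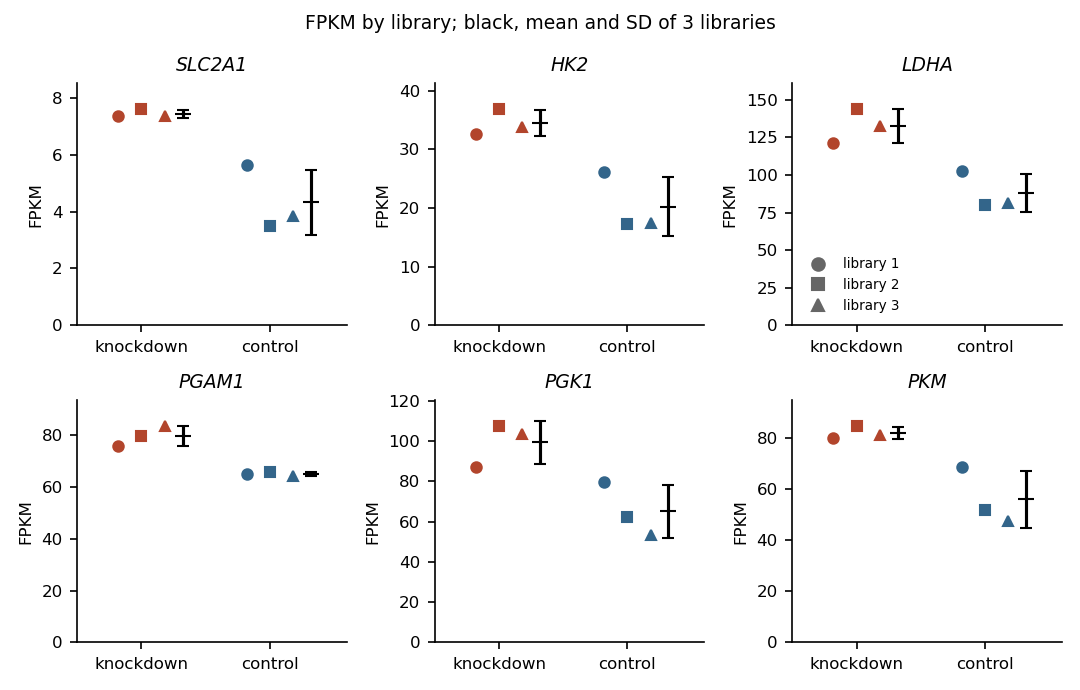
FPKM of SLC2A1, HK2, LDHA, PGAM1, PGK1 and PKM in each knockdown (left) and control (right) library, with the mean and SD of 3 libraries in black; each axis starts at 0. In all 6 panels the knockdown libraries lie above the controls, and control 1 (circle) is the highest control in each panel but that of PGAM1.

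Phosphofructokinase, the committed step, is a tetramer of the PFKL, PFKM and PFKP subunits, and the differences of its 3 genes did not run one way. PFKP, the platelet form, stood at 13.2, 14.7 and 14.5 FPKM in the knockdown libraries, against 11.3, 12.6 and 11.3 FPKM in the control libraries, all knockdown values above all controls (log2 fold change 0.27, SE 0.08, limma adjusted p = 0.0815). PFKM, the muscle form, stood at 11.8, 13.9 and 12.8 FPKM in the knockdown libraries, against 14.8, 16.5 and 15.0 FPKM in the control libraries, all below (log2 fold change -0.26, SE 0.09, limma adjusted p = 0.0954). PFKL, the liver form, stood at 10.2, 12.3 and 12.1 FPKM in the knockdown libraries, against 12.3, 14.1 and 12.8 FPKM in the control libraries, with a log2 fold change of -0.18 (limma adjusted p = 0.244) and knockdown 2 and control 1 nearly equal. With median-of-ratios size factors the PFKP groups overlapped (log2 fold change 0.15, limma adjusted p = 0.323). All knockdown values of PFKM and PFKL stayed below all controls with that scaling. None of the 3 passed the test under either scaling. Shares within a library do not depend on how the libraries are scaled. PFKP made up 37.5%, 35.9% and 36.9% of the summed level in the knockdown libraries, against 29.4%, 29.2% and 28.9% in the control libraries, or 36.8 ± 0.794% and 29.2 ± 0.262% (SD, n = 3 each). PFKM made up 33.4 ± 0.792% in the knockdown and 38.3 ± 0.203% in control libraries, and PFKL 29.9 ± 0.862% and 32.5 ± 0.389%. None of the 3 shares overlapped between groups, and here control 1 lay with the other controls. The 3 shares are parts of the same sum in each library, so they depend on each other and are not separate results. Shares without overlap were not particular to this step. Those of SLC2A1, SLC2A4, HK1, HK2, PFKFB3, PFKFB4, LDHA, LDHB and PDK2 in their steps did not overlap either. All shares of the aldolase, enolase and lactate transport genes overlapped. An exact permutation test of 3 against 3 libraries cannot give a two-sided p below 0.1, so these shares are given without one.

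**Figure D3:**
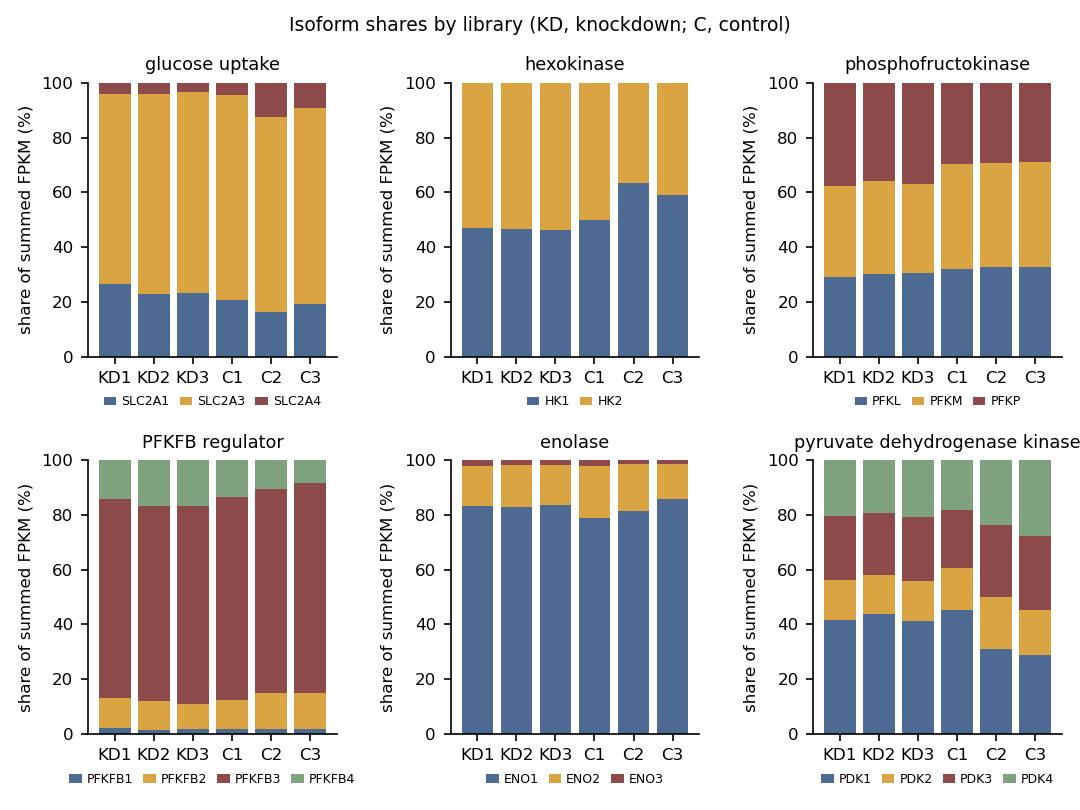
Share of each gene in the summed FPKM of its step, in percent, by library (KD, knockdown; C, control). The PFKP share is 35.9% to 37.5% in knockdown and 28.9% to 29.4% in control libraries, while for HK2 and PDK1 control 1 lies nearer the knockdown libraries than controls 2 and 3.

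The PFKFB enzymes make and break fructose 2,6-bisphosphate, the activator of phosphofructokinase. PFKFB3, the most abundant, stood at 16.9, 16.8 and 16.6 FPKM in the knockdown libraries, against 17.2, 13.2 and 12.8 FPKM in the control libraries, so that control 1 was the highest of all (log2 fold change 0.23, limma adjusted p = 0.217). PFKFB4 stood at 3.25, 3.98 and 3.82 FPKM in the knockdown libraries, against 3.07, 1.83 and 1.39 FPKM in the control libraries. The groups did not overlap, with control 1 close below knockdown 1. Its log2 fold change of 0.85 was the highest of the 30, with an SE of 0.27 and a limma adjusted p of 0.0941. PFKFB4 took 15.8 ± 1.57% of the FPKM of the 4 genes in the knockdown and 10.6 ± 2.50% in control libraries. PFKFB2 averaged 2.41 ± 0.212 FPKM in the knockdown and 2.35 ± 0.146 FPKM in control libraries. PFKFB1, at 0.52, 0.36 and 0.38 FPKM in the knockdown and 0.38, 0.33 and 0.32 FPKM in control libraries, was too low to be tested.

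Aldolase and triose phosphate isomerase turn fructose 1,6-bisphosphate into glyceraldehyde 3-phosphate. ALDOA, the muscle-type aldolase, stood at 2.90, 3.21 and 3.003 FPKM in the knockdown libraries, against 3.53, 1.71 and 1.31 FPKM in the control libraries. Control 1 was above all knockdown libraries. The log2 fold change was 0.58 with an SE of 0.34 (limma adjusted p = 0.274). An overlapping gene on the same strand, ENSG00000285043, had 1.14 to 1.47 FPKM in the knockdown and 0.551 to 1.29 FPKM in control libraries, and how reads were split between the pair is uncertain. ALDOC, the brain form, stood at 4.97, 4.35 and 5.16 FPKM in the knockdown libraries, against 4.42, 3.64 and 2.37 FPKM in the control libraries (log2 fold change 0.50, limma adjusted p = 0.173). TPI1 stood at 195, 216 and 217 FPKM in the knockdown libraries, against 198, 185 and 186 FPKM in the control libraries, overlapping through knockdown 1 and control 1 (log2 fold change 0.14, limma adjusted p = 0.228).

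GAPDH, which makes the NADH of the pathway and is often used as a reference gene, was the most abundant of all 32. It stood at 366, 452 and 454 FPKM in the knockdown libraries, against 437, 432 and 388 FPKM in the control libraries, and the group means of 424 and 419 FPKM differed by less than either SD (log2 fold change 0.01, SE 0.11, and -0.11 with median-of-ratios size factors). The table lists 37 pseudogenes of GAPDH, with a summed mean level of 12.1 FPKM. PGK1, the first ATP-making step, stood at 86.9, 107 and 104 FPKM in the knockdown libraries, against 79.4, 62.5 and 53.3 FPKM in the control libraries. The groups did not overlap, and its log2 fold change of 0.62 (SE 0.16) was just outside the threshold (limma adjusted p = 0.0624). PGAM1 (ENSG00000171314; chromosome 10, 97426160 to 97433441, plus strand), which moves the phosphate of 3-phosphoglycerate, stood at 75.6, 79.5 and 83.3 FPKM in the knockdown libraries, against 64.8, 65.5 and 64.0 FPKM in the control libraries. The controls averaged 64.8 ± 0.762 FPKM (SD, n = 3), control 1 among them, and all knockdown libraries were higher (log2 fold change 0.29, SE 0.06, limma adjusted p = 0.0457). Its 8 listed pseudogenes summed to 1.77 FPKM. With median-of-ratios size factors its log2 fold change was 0.17 (limma adjusted p = 0.157).

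Enolase makes phosphoenolpyruvate. ENO1, the ubiquitous form, stood at 189, 209 and 213 FPKM in the knockdown libraries, against 163, 173 and 189 FPKM in the control libraries (log2 fold change 0.22, limma adjusted p = 0.134). Only knockdown 1 and control 3 overlapped. ENO2, the neuronal form, stood at 33.3, 39.1 and 37.0 FPKM in the knockdown libraries, against 39.7, 35.8 and 28.6 FPKM in the control libraries, and the groups overlapped. ENO3, the muscle form, stood at 4.54, 4.46 and 4.501 FPKM in the knockdown libraries, against 4.02, 3.18 and 2.86 FPKM in the control libraries. Its groups did not overlap (log2 fold change 0.43, limma adjusted p = 0.09). PKM, pyruvate kinase, stood at 80.2, 84.8 and 81.1 FPKM in the knockdown libraries, against 68.9, 51.8 and 47.6 FPKM in the control libraries (log2 fold change 0.57, SE 0.14, limma adjusted p = 0.0579). All knockdown libraries were higher, control 1 nearest to them. The table gives 1 value per gene, so the PKM1 and PKM2 splice forms are not separated.

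LDHA (ENSG00000134333; chromosome 11, 18394388 to 18408425, plus strand), the subunit that favours lactate formation, stood at 122, 144 and 132 FPKM in the knockdown libraries, against 103, 80.0 and 81.3 FPKM in the control libraries. The groups did not overlap and control 1 lay between. The log2 fold change was 0.60 (SE 0.12, limma adjusted p = 0.0436), or 1.51-fold, and the smallest adjusted p of the 30. LDHB, the subunit of the heart form, stood at 1.51, 1.49 and 1.502 FPKM in the knockdown libraries, against 1.53, 1.30 and 1.10 FPKM in the control libraries. LDHA made up 98.9 ± 0.10% of the summed level of the pair in the knockdown and 98.5 ± 0.129% in control libraries.

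The pyruvate dehydrogenase kinases inhibit pyruvate dehydrogenase in the mitochondrion. PDK1, a HIF target, stood at 6.30, 7.73 and 6.72 FPKM in the knockdown libraries, against 6.61, 4.06 and 3.73 FPKM in the control libraries, with control 1 among the knockdown values (log2 fold change 0.56, limma adjusted p = 0.137). PDK3 stood at 3.55, 3.95 and 3.805 FPKM in the knockdown libraries, against 3.11, 3.46 and 3.52 FPKM in the control libraries. Its groups were without overlap but by a small step (limma adjusted p = 0.289), and they overlapped with median-of-ratios size factors. PDK2 and PDK4 overlapped between groups, with log2 fold changes of 0.03 and 0.08, both below 0 with median-of-ratios size factors. Of the lactate carriers, SLC16A1 (MCT1) stood at 42.4, 44.9 and 43.8 FPKM in the knockdown libraries, against 44.6, 49.0 and 48.9 FPKM in the control libraries (log2 fold change -0.12, limma adjusted p = 0.241). It was by far the most abundant of its 3, at 98.7% of their summed level in the knockdown and 99.1% in control libraries. SLC16A3 (MCT4), the lactate exporter of glycolytic cells, stood at 0.52, 0.46 and 0.56 FPKM in the knockdown libraries, against 0.51, 0.20 and 0.20 FPKM in the control libraries (limma adjusted p = 0.287). SLC16A7 (MCT2) had 15, 29 and 44 reads in the knockdown and 33, 85 and 65 reads in control libraries and was not tested.

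**Figure D4:**
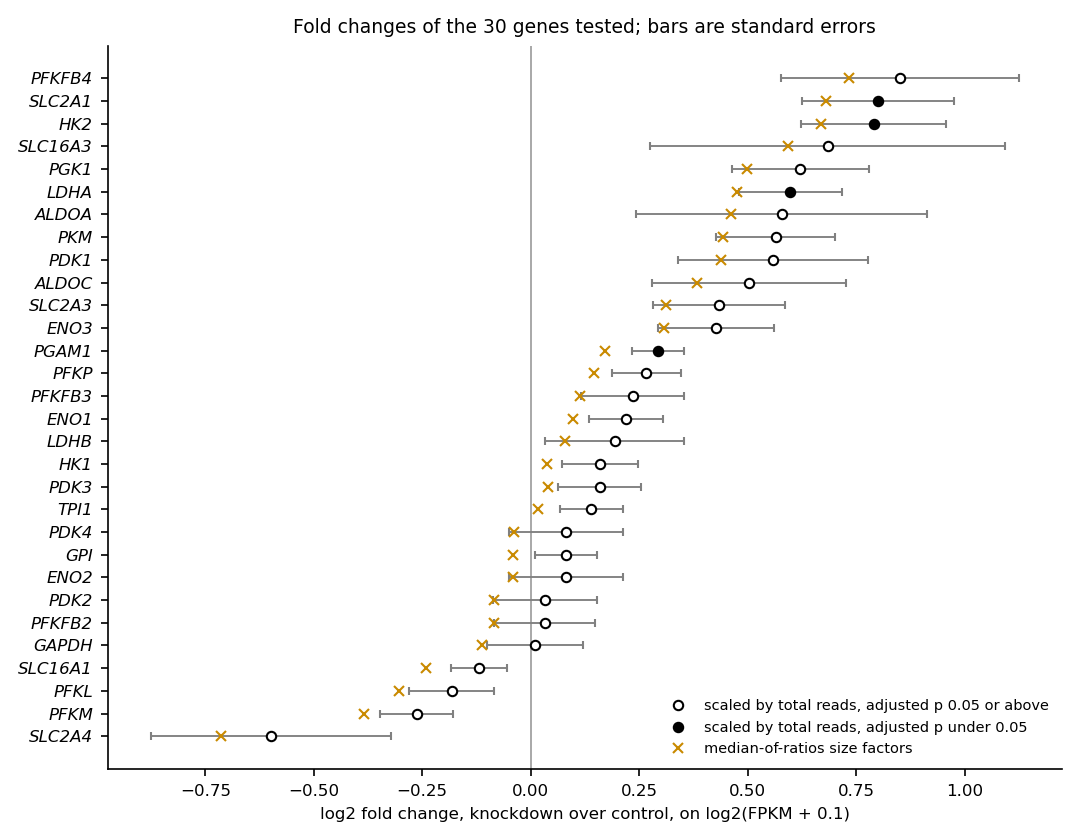
Log2 fold change, knockdown over control, of the 30 genes tested, with SE bars; filled marks passed at an adjusted p under 0.05 and crosses give the value with median-of-ratios size factors. Values run from -0.60 for SLC2A4 to 0.85 for PFKFB4, and every cross lies left of its mark.

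The genes that surround the pathway were read from lists. In 10 lists of neighbouring pathways with 93 tested genes, 2 rose and 3 fell, where 4.14% of all genes tested rose and 2.06% fell. The counts were 33 and 26 without control 1, where 28% and 15.7% of all genes did. They were 0 and 0 without any 1 of the other 5 libraries, where 0 of all genes tested passed. TALDO1, transaldolase of the pentose phosphate pathway, averaged 53.9 ± 1.35 FPKM in the knockdown and 45.03 ± 0.277 FPKM in control libraries (log2 fold change 0.26, limma adjusted p = 0.0457). TKT, transketolase of the same pathway, averaged 22.4 ± 1.34 FPKM in the knockdown and 29.4 ± 2.27 FPKM in control libraries (log2 fold change -0.39, limma adjusted p = 0.0478). These 2 of 8 tested genes of that pathway went opposite ways, and the list had a median of -0.29. GBE1, the glycogen branching enzyme, averaged 5.91 ± 0.859 FPKM in the knockdown and 3.22 ± 0.662 FPKM in control libraries (log2 fold change 0.87, limma adjusted p = 0.0452), 1 of 9 tested in the glycogen list. TXNIP, an arrestin that removes glucose transporters from the cell surface, stood at 152, 189 and 183 FPKM in the knockdown libraries, against 495, 410 and 382 FPKM in the control libraries. All knockdown libraries were lower and control 1 was the highest control (log2 fold change -1.29, SE 0.13, limma adjusted p = 0.0315). Its relative ARRDC4 stood at 60.6, 70.8 and 68.9 FPKM in the knockdown libraries, against 82.4, 86.9 and 93.2 FPKM in the control libraries (log2 fold change -0.39, limma adjusted p = 0.0491). None of the 9 tested genes of the HIF pathway and none of the 17 tested HIF targets outside glycolysis passed, with medians of -0.06 and 0.20. At an unadjusted limma p under 0.05, 7 of the 17 targets were higher and 2 lower, against 21.0% and 11.6% of all genes tested. Of the 9 pathway genes, 3 were higher and 1 lower. Without control 1, 9 of the 17 targets passed as higher and 4 as lower, against 28% and 15.7% of all genes. The other lists, isoforms outside the 32 genes, gluconeogenesis, pyruvate entry, NADH shuttles and partners of the lactate transporters, had 0 calls among 15, 6, 10, 9 and 3 tested genes, with medians of 0.14, -0.24, -0.06, -0.06 and -0.11. Of the 69 tested genes in these 7 lists without a call, 22 were higher and 11 lower at an unadjusted limma p under 0.05, against 21.0% and 11.6% of all genes tested.

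**Figure D5:**
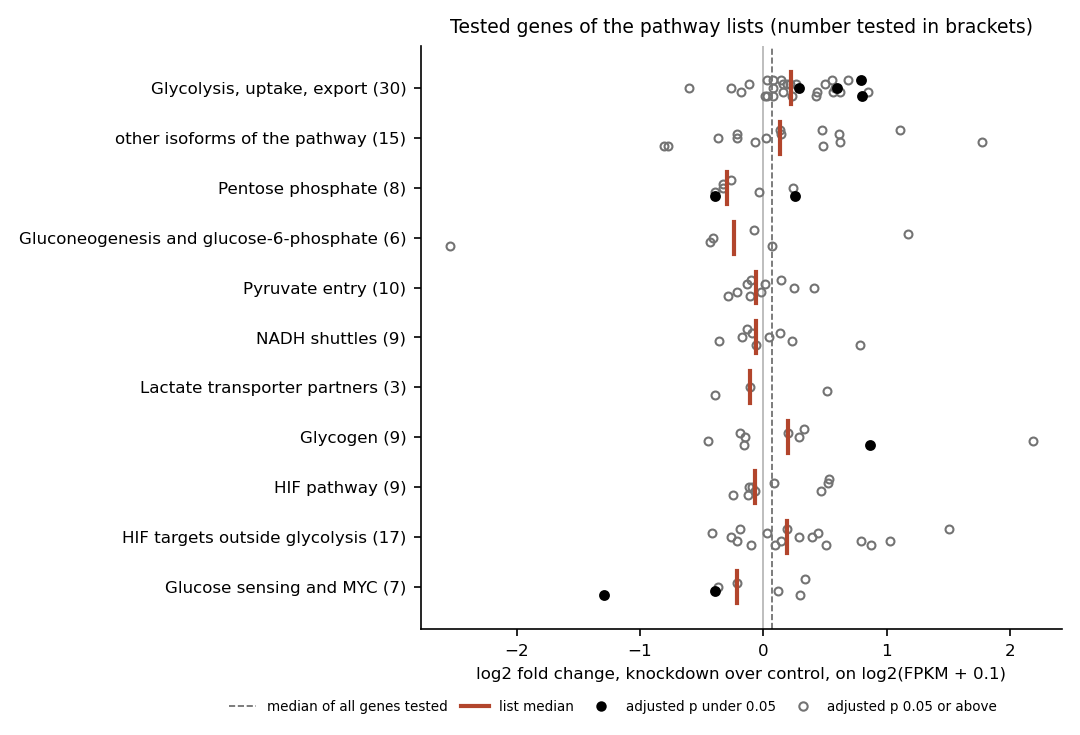
Log2 fold change, knockdown over control, of each tested gene by list, with the list median as a red bar and the median of all genes tested (0.07) as a dashed line; filled marks passed at an adjusted p under 0.05. The glycolysis row holds 4 filled marks, all right of 0, and TXNIP is the filled mark at -1.29.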

How the data were processed

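Poly(A)-selected RNA-seq libraries of 3 knockdown and 3 control samples were read by gene. Per the submitters' processing notes, HISAT2 was used, with its version, the counter and the genome build not given in the sources used here. Deposited per-library values are FPKM, although the table is named for counts, and the authors deposited group means (a signal divided by size factors), log2 fold changes and p-values beside them. Gene positions are from GENCODE 29 (GRCh38).

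Whole reads were recovered from FPKM and the group means: 100% of values came out whole within 0.1 read, and 55.6% of those above 0 were even. Tests ran on log2(FPKM + 0.1), so a fold change of a low gene is understated, over the 18548 genes that reached 0.5 FPKM in 3 or more of the 6 libraries. The test was limma 3.58.1 in R 4.3.3 with a mean-variance trend, two-sided, Benjamini-Hochberg adjusted over all genes tested, threshold 0.05. Same-numbered libraries were not treated as pairs. The main test was not a count model, since the deposited per-library values are FPKM. The only fit on counts was limma-voom on the recovered reads, as an alternative. The 32 members and the lists were chosen with earlier results of these data known. All 32 members are accounted for. Those that passed, the 2 most abundant of each step and the extremes of the fold change are given library by library, and PFKL, ENO3, PFKFB1 and SLC16A7 were added to complete their steps. From each list the genes past the test are named. Neuroblast genes TH and ELAVL4 were not analysed here. Some marker genes are not reported here.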

Additional observations from a re-analysis of the deposited data

How the results depend on the processing

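The counts of members called depended on the processing. The 4 higher became 7 with limma-voom and 0 with median-of-ratios size factors, without the filter, without the mean-variance trend and with the replicate block. They became 0 to 15 with 1 library left out, the 15 without control 1, and the lower count then ranged from 0 to 3. With median-of-ratios size factors and no control 1, chosen after seeing the data, 11 were higher and 4 lower. Over all 18548 genes tested, that fit gave 3628 higher and 4890 lower. At an unadjusted limma p under 0.05 it had 56.7% of the members and 54.1% of all genes. Where 0 passed, 12 of the 30 members had an unadjusted limma p under 0.05 with the block (32.3% of all genes did). With 1 of the other 5 libraries left out, 7 to 11 did (19.8% to 24.4%), and 0 of all genes tested passed. The limma adjusted p with 1 of those 5 left out was 0.129 to 0.182 for SLC2A1, 0.12 to 0.173 for HK2, 0.113 to 0.17 for LDHA and 0.112 to 0.174 for PGAM1, and with the block 0.0626, 0.0650, 0.0693 and 0.0725 in that order. Over all genes, 768 higher and 382 lower became 2295 and 835 with limma-voom, 338 and 495 with median-of-ratios size factors, 3628 and 4890 with those and no control 1, 25 and 17 without the filter, 65 and 26 without the trend, 0 and 0 with the block (5990 at unadjusted p under 0.05), and 0 to 5187 and 0 to 2906 with 1 library left out. List genes, 2 higher and 3 lower, became 21 higher with limma-voom, 4 higher with a pseudocount of 1 FPKM, 18 and 44 with median-of-ratios size factors and no control 1, 0 higher with those factors alone, 0 and 1 without the filter, 1 and 1 without the trend, 0 and 0 with the block, and 0 to 33 and 0 to 26 with 1 library left out. The sign turned with median-of-ratios size factors for GPI (-0.041), PFKFB2 (-0.085), GAPDH (-0.11), ENO2 (-0.041), PDK2 (-0.084) and PDK4 (-0.038), and with those and no control 1 for HK1 (-0.033), GPI (-0.047), PFKFB2 (-0.081), GAPDH (-0.12), PDK2 (-0.14), PDK3 (-0.053) and PDK4 (-0.18). With 1 library left out, the log2 fold change of PFKFB2 ran from -0.00995 to 0.10, GAPDH from -0.045 to 0.11, ENO2 from -0.053 to 0.18, PDK2 from -0.022 to 0.098 and PDK4 from -0.024 to 0.19. The causes were not tested. Deviations from the group mean correlated at 0.149, 0.078 and 0.037 between same-numbered libraries, against -0.126 to 0.099 for the other pairs of a knockdown and a control. The numbers were not read as pairs because the labels do not pair the libraries.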
